A study of Mus musculus with 16 samples.

Results

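The genes described here are the Notch pathway and secretory fate genes Notch1, Notch2, Jag1, Jag2, Dll1, Hes1, Atoh1 and Neurod1, followed in mouse ileal epithelium collected by laser capture microdissection, a method that cuts chosen cells out of a tissue section. Every probe set whose single gene symbol in the array's platform annotation was one of these 8 names was taken, which gave 10 probe sets of 7 genes among the 12488 on the array. No probe set carried Jag1 as its single symbol, so Jag1 was not analysed here. The 16 samples were carcinoma (n = 5), adenoma (n = 5) and WT (n = 6), as named in the sample titles, each captured with the Arcturus system, amplified with RiboAmp in 2 rounds, labelled with the Enzo kit and hybridised to 1 Affymetrix MG_U74Av2 array. The labels give no genotype, strain, age or treatment beyond the word WT, do not say what gave rise to the tumours or how cells were chosen for capture, and tie no array to an animal. Captures of 1 group that came from the same animal would make the p-values given here too small. All values are probe set signals on a linear scale, and log2 differences were taken after values under 46.9, the 25th percentile of all signals, were raised to that floor.

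Notch signalling passes between neighbouring cells: a ligand of the Delta or Jagged family on 1 cell pulls on a Notch receptor on the next, the receptor is cut, and its inner part enters the nucleus and joins the DNA-binding protein Rbpj to switch on repressors of the Hes family. In the intestinal crypt, cells with active Notch keep Hes1 on and Atoh1 off and go on to the absorptive lineage. Cells that escape the signal turn on Atoh1 and Delta ligands and become secretory, and Neurod1 acts later, in the enteroendocrine branch.

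Of the 10 probe sets, 8 lay above the floor on at least 5 of the 16 arrays and were tested, and 1 of these 8, for the ligand Dll1, was lower than in WT in both tumour groups. In carcinoma that 1 of 8 stood against 5.01% of the 10563 probe sets tested that fell and 8.68% that changed in either direction, and in adenoma against 4.24% that fell and 7.77% that changed in either direction (limma, Benjamini-Hochberg adjusted p of 0.05 or less over all probe sets tested). The median log2 difference of the 8 was -0.10 in carcinoma and -0.26 in adenoma, beside -0.17 and -0.18 over all probe sets tested, so that the members as a list lay near the array as a whole. Between carcinoma and adenoma 0 of the 8 passed the test, against a background of 0.0379%, and 0 had an unadjusted p under 0.05, beside 2.44% of all probe sets tested.

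**Figure D1:**
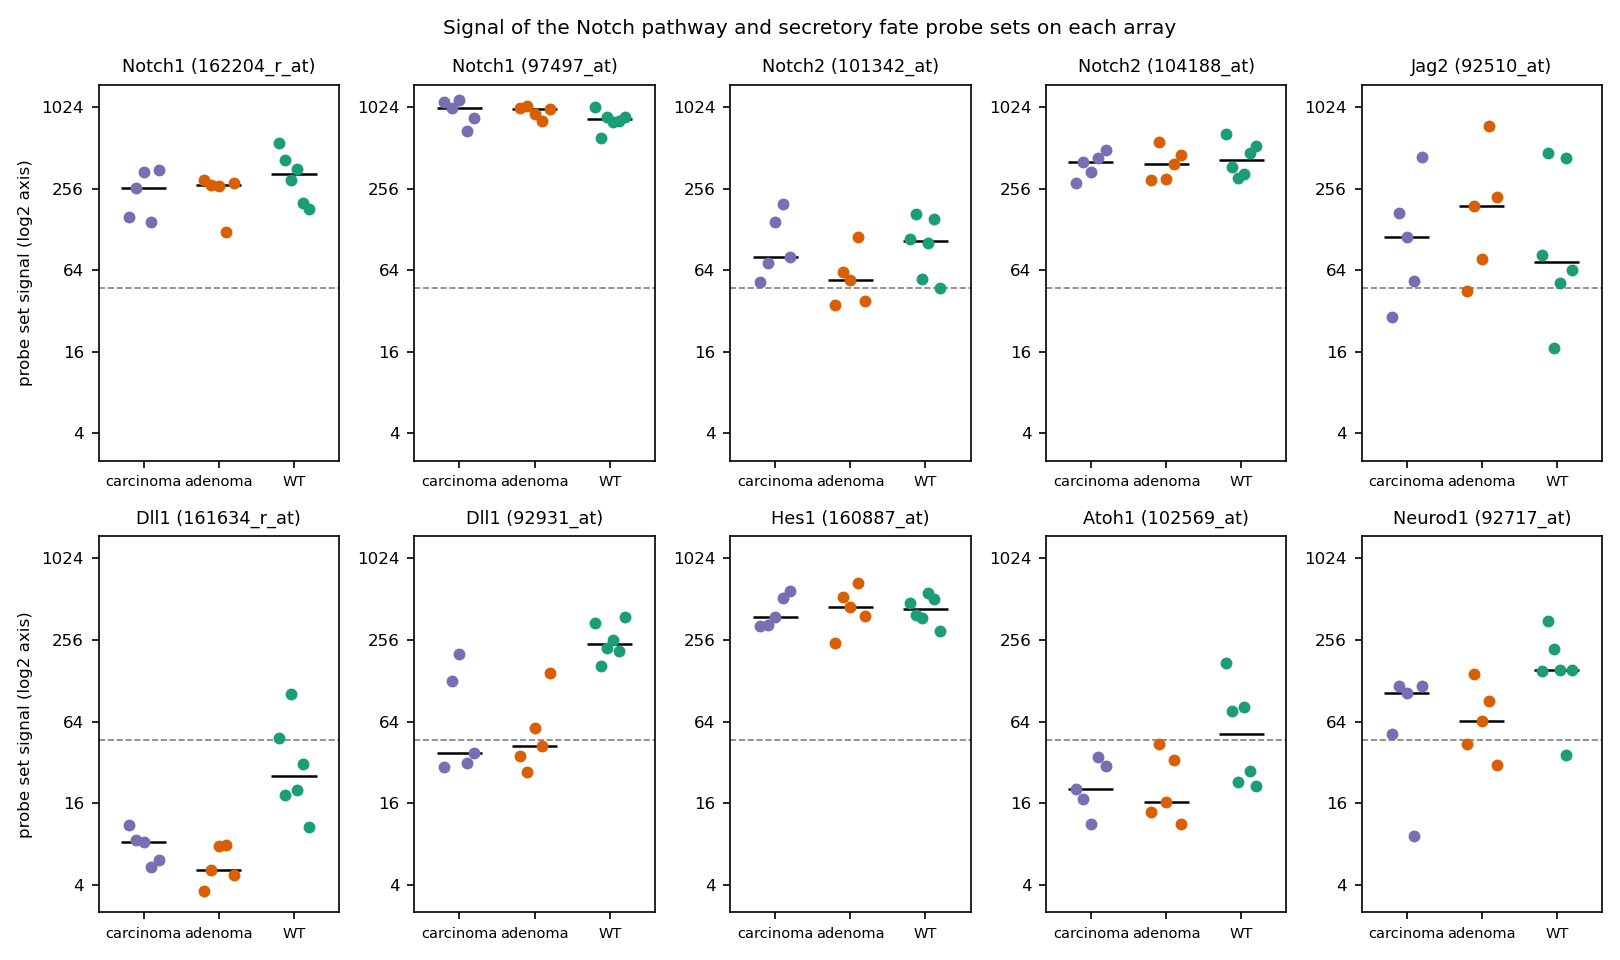
Signal of each of the 10 probe sets on each array, with signal on a log2 axis and the groups side by side; each point is 1 array, the bar is the group median and the dashed line is the floor of 46.9. For Dll1 (92931_at) 9 of the 10 tumour arrays lie below the lowest WT array, at 163.8, and Jag2 is spread over the same wide range in every group.

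The receptors came first in the pathway and showed no difference that passed the test. Notch1, a receptor needed to keep crypt cells undifferentiated, had on its probe set 97497_at signals of 1108.8, 1014.5, 1146.6, 676.9 and 844.2 in carcinoma and 999.8, 1037.9, 903.3, 807.5 and 986.8 in adenoma. The 6 WT arrays ran from 601.5 through a median of 833 to 1022.2. The 3 groups overlapped, with 2 carcinoma arrays and 1 adenoma array above the highest WT array. The log2 difference was 0.21 ± 0.22 in carcinoma (SE, 95% interval -0.26 to 0.68, adjusted p = 0.602, limma) and 0.21 ± 0.22 in adenoma (95% interval -0.26 to 0.68, adjusted p = 0.596, limma). Its spread within groups, a residual SD of 0.249 on the log2 scale, was among the smallest on the array, since 1.86% of the probe sets tested varied less. These intervals leave room for a gain of up to 1.60-fold in either tumour group.

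The second Notch1 probe set, 162204_r_at, did not follow the first. It read 156.7, 259.6, 336.7, 144.8 and 351.5 in carcinoma and 294.6, 270.2, 266.2, 122.4 and 281.5 in adenoma, against a lowest, median and highest WT signal of 181.0, 325 and 550.4. Its log2 differences were below 0, at -0.40 ± 0.35 in carcinoma (adjusted p = 0.513, limma) and -0.39 ± 0.35 in adenoma (adjusted p = 0.529, limma), and the groups overlapped. The sign for Notch1 against WT therefore rests on which probe set is read, and neither passed the test.

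Notch2, the second receptor of crypt epithelium, also had a pair of probe sets. On 104188_at the signals were 282.4, 399.0, 338.6, 430.3 and 495.0 in carcinoma, 295.3, 564.1, 301.9, 389.4 and 452.2 in adenoma, and 304.2 to 641.7 with a median of 417 in WT. The groups covered nearly the same range, and the log2 differences were -0.15 ± 0.27 in carcinoma (95% interval -0.71 to 0.41) and -0.12 ± 0.27 in adenoma (95% interval -0.68 to 0.44). The dimmer probe set 101342_at read 52.5, 72.2, 144.2, 195.2 and 79.4 in carcinoma, 35.5, 61.7, 53.9, 111.7 and 38.0 in adenoma and 47.5 to 166.3 in WT, with 3 of 5 adenoma arrays above the floor, against all 5 carcinoma and all 6 WT arrays. Here the log2 difference was 0.03 ± 0.40 in carcinoma and -0.65 ± 0.40 in adenoma (adjusted p = 0.343, limma), and carcinoma minus adenoma was 0.67 ± 0.41 (95% interval -0.19 to 1.54). The adenoma difference took the opposite sign once adjusted for the spike-in controls described below (0.28) or for the Gapdh 3′ to 5′ ratio (0.27), and without WT 1, WT 2, WT 4 and WT 5 (0.24). The carcinoma difference was 0.96, 0.86 and 0.92 in those fits and -0.17 with a replicate block, and none of these passed the test.

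**Figure D2:**
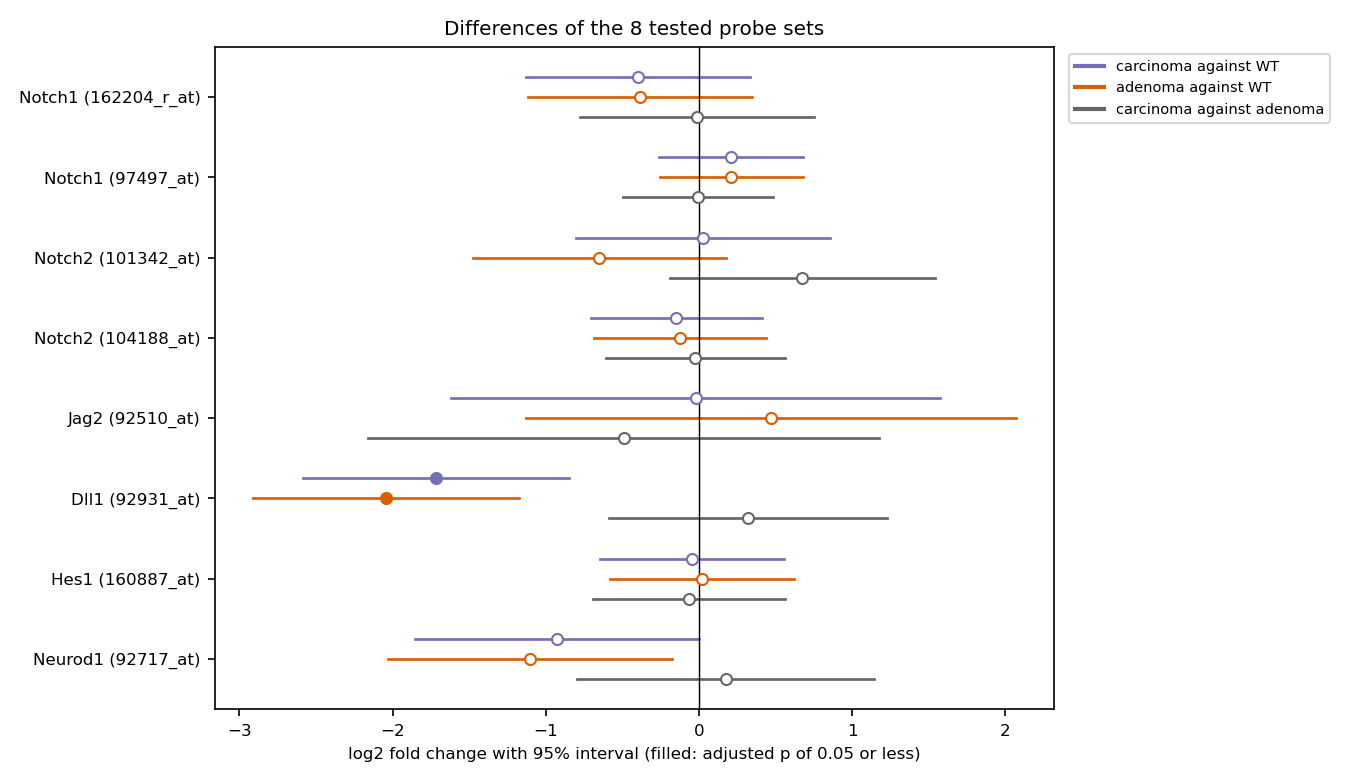
Log2 fold change of the 8 tested probe sets with 95% intervals, for carcinoma against WT, adenoma against WT and carcinoma against adenoma; filled points have an adjusted p of 0.05 or less. The 2 filled points are Dll1 (92931_at) at -1.72 in carcinoma and -2.04 in adenoma, and the Jag2 intervals are the widest.

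Among the ligands, Dll1 was the member that changed. Dll1 is a Delta-family ligand displayed by early secretory cells, which signals to the cells around them. RefSeq lists 2 start sites for it, and the windows from 250 bases before to 50 bases after each start are given here, 5′ to 3′ on the minus strand of GRCm38.p6, because it is the 1 member past the threshold. Capitals mark every E-box, CANNTG, the letters that Atoh1, Neurod1 and other basic helix-loop-helix factors read.
Dll1, chr17:15375774-15376073: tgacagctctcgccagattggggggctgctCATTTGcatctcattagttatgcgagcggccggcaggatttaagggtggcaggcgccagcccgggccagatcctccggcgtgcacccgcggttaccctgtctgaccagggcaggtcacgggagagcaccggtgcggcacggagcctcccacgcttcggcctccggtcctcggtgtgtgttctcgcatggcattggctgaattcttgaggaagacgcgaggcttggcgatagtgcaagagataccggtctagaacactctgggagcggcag
Dll1, chr17:15376883-15377182: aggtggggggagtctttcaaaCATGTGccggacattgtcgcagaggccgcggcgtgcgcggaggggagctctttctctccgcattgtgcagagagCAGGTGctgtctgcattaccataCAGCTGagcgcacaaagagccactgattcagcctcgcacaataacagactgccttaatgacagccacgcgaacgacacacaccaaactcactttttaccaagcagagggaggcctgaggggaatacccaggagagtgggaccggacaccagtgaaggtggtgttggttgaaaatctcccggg
The first window holds 1 E-box, CATTTG, 220 bases before the start. The other holds 3, which begin 229, 155 and 132 bases before the start. An E-box is found in 72.3% of all 32851 RefSeq windows of this length. TGGGAA, the core that Rbpj reads, was searched on both strands and is in neither window, as against 25.6% of all windows. The N-box CACNAG, read by Hes repressors, occurs in the second window from base 14 after the start, overlapping no E-box, and in 42.5% of all windows. Promoter windows were matched for 7 of the 8 members.

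The Dll1 probe set 92931_at had signals of 29.4, 128.7, 201.2, 31.7 and 37.7 in carcinoma and 35.8, 27.4, 57.8, 42.4 and 146.3 in adenoma. The 6 WT arrays ran from 163.8 through a median of 239 to 381.4. All 5 adenoma arrays lay below the lowest WT array, a separation that 2.90% of the probe sets tested showed in this direction, and 4 of 5 carcinoma arrays did, carcinoma 3 being the exception. Dll1 fell by 1.72 ± 0.41 on the log2 scale in carcinoma, to 3.29-fold below WT (95% interval -2.59 to -0.85, adjusted p = 0.0132, limma). In adenoma it fell by 2.04 ± 0.41, to 4.12-fold below WT (95% interval -2.91 to -1.17, adjusted p = 0.00388, limma). Carcinoma minus adenoma was 0.32 ± 0.43 (95% interval -0.58 to 1.23), so the tumour groups did not differ beyond their spread. With 3 of 5 arrays at the floor in each tumour group and 0 of 6 in WT, the floor shrinks these differences. Without any floor they were -2.03 ± 0.53 in carcinoma (adjusted p = 0.0326, limma) and -2.30 ± 0.53 in adenoma (adjusted p = 0.0182, limma). In captured tissue, fewer Dll1-bearing cells and less Dll1 RNA per cell cannot be told apart.

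The second Dll1 probe set, 161634_r_at, was dim and was not tested with the floor. It read 11, 8.5, 8.3, 5.4 and 6.1 in carcinoma and 3.6, 5.1, 7.7, 7.9 and 4.7 in adenoma, all below 46.9, and 10.7, 25.4 and 102.2 as the lowest, median and highest in WT. Only WT 1 and WT 3, at 48.3 and 102.2, were above the floor. With neither floor nor filter, a setting added after the data were seen, its log2 difference was -1.93 ± 0.47 in carcinoma (adjusted p = 0.0225, limma) and -2.39 ± 0.47 in adenoma (adjusted p = 0.00633, limma). These signals are near the bottom of the scale, and with the floor at the 10th percentile neither comparison passed (adjusted p = 0.151 in carcinoma and 0.160 in adenoma, limma).

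The fall of Dll1 held its sign under all 31 alternative settings in both comparisons and passed the test in all 16 fits that left out 1 array, with adjusted p up to 0.0441 in carcinoma and 0.0142 in adenoma (limma). The call was lost under some settings that weighed array quality. WT 1, WT 2, WT 4 and WT 5 had a spike-in control signal above every tumour array, and without these 4 the log2 difference was -1.92 ± 0.61 in carcinoma (adjusted p = 0.132, limma) and -2.25 ± 0.61 in adenoma (adjusted p = 0.0735, limma). That fit left WT 3 and WT 6, at 222.4 and 381.4, as the only WT arrays. With the 3′ to 5′ ratio of Gapdh, 1 measure of RNA length, as a covariate, the difference was -2.12 ± 0.68 in carcinoma (adjusted p = 0.185, limma) and -2.48 ± 0.72 in adenoma (adjusted p = 0.150, limma). That ratio itself differed between tumours and WT, as given below, so this fit cannot tell group and ratio apart and its SEs are wider. With the floor raised to the 40th percentile Dll1 still passed, at a smaller -0.96 in carcinoma and -1.09 in adenoma. In carcinoma it also missed the threshold after quantile normalization (-1.40, adjusted p = 0.0623, limma) and with array weights (-1.43, adjusted p = 0.0598, limma).

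**Figure D3:**
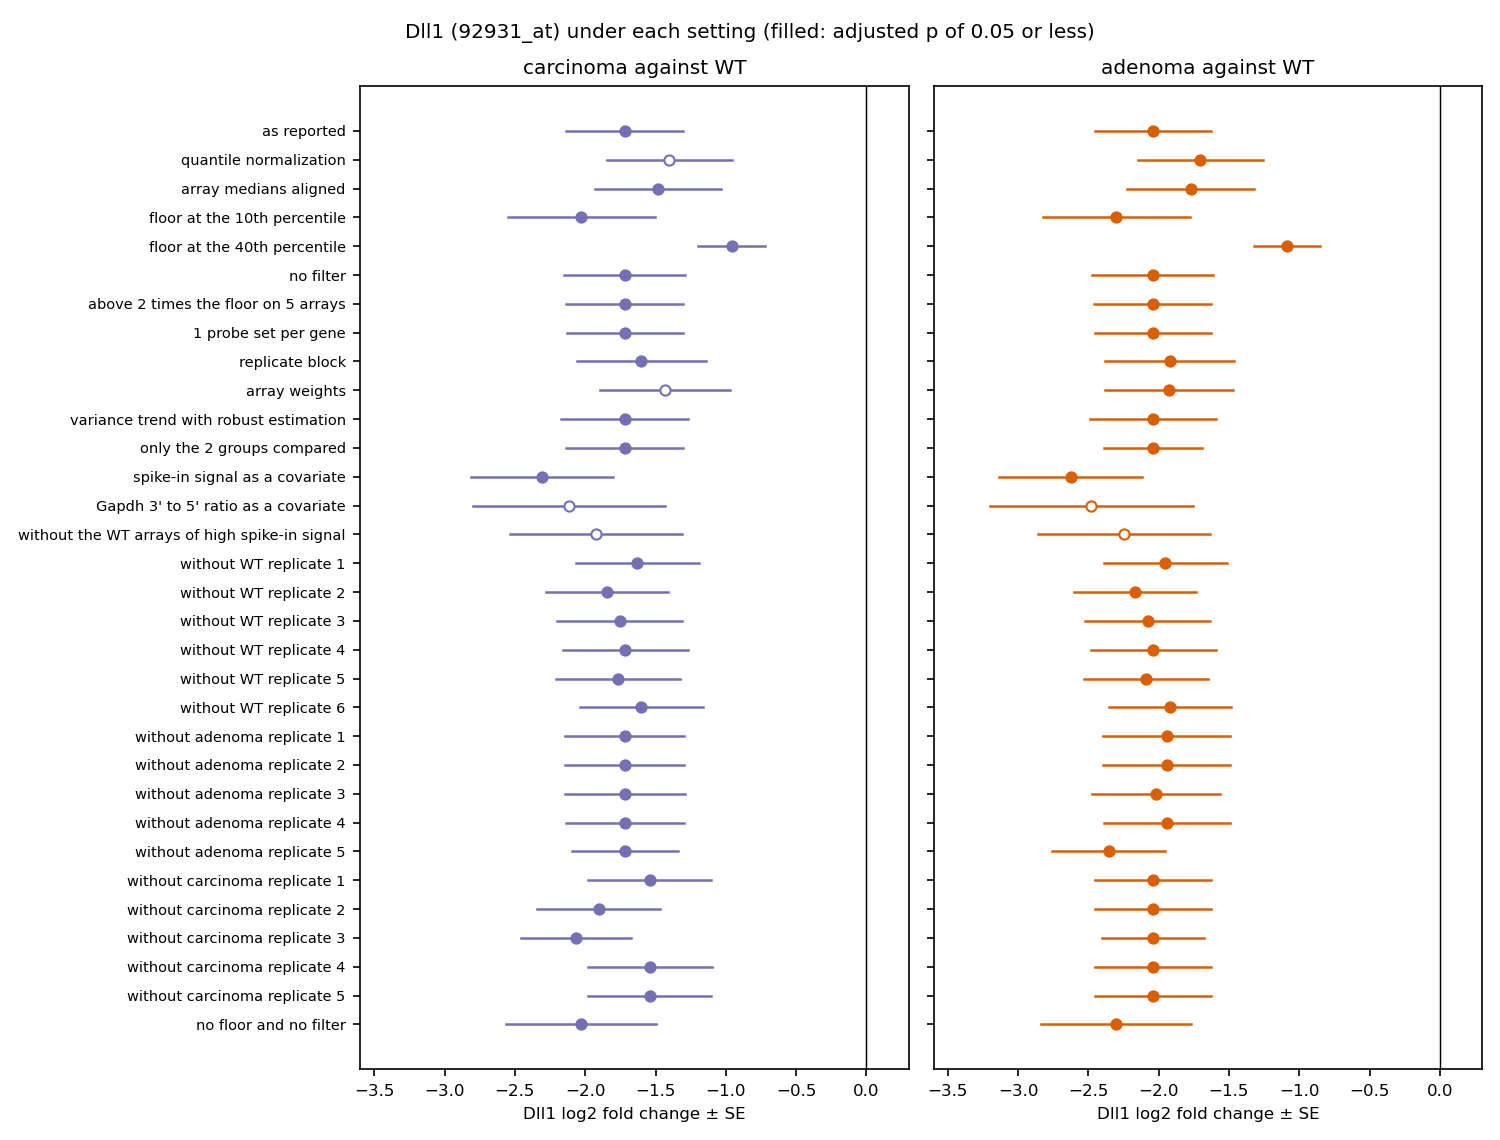
Log2 fold change of Dll1 (92931_at) with its SE under each of the 31 alternative settings and as reported, for carcinoma and adenoma against WT; filled points have an adjusted p of 0.05 or less. Every point lies below 0, and open points appear in carcinoma for quantile normalization, array weights, the Gapdh ratio and the fit without 4 WT arrays, and in adenoma for the last 2 of these.

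Jag2, a Jagged-family ligand, varied more within groups than nearly any other probe set. Its signals were 28.8, 169.8, 111.7, 53.0 and 439.8 in carcinoma, 45.2, 190.2, 77.1, 740.2 and 222.7 in adenoma, and 17.0, 73.5 and 469.8 as the lowest, median and highest in WT. Each group held both dim and bright arrays, and the residual SD of 1.47 on the log2 scale exceeded that of 99.8% of the probe sets tested. The log2 difference was -0.02 ± 0.76 in carcinoma (95% interval -1.62 to 1.58) and 0.47 ± 0.76 in adenoma (95% interval -1.13 to 2.07), so changes of severalfold either way were not detectable. The brightest Jag2 arrays were also the arrays of highest spike-in signal in their groups: carcinoma 5 with a mean log2 spike-in of 12.70, adenoma 4 with 13.47, and WT 2 and WT 5 with 14.59 and 14.73. Carcinoma 4, nearly as high in spike-in at 12.69, read 53.0 for Jag2. Adjusted for spike-in signal, the Jag2 difference was 1.86 in carcinoma (adjusted p = 0.216, limma) and 2.34 ± 0.76 in adenoma (adjusted p = 0.0945, limma). Adjusted for the Gapdh ratio it took the opposite sign, at -1.63 ± 1.17 in carcinoma (adjusted p = 0.650, limma) and -1.30 ± 1.25 in adenoma (adjusted p = 0.782, limma), so the data give no direction for Jag2.

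Hes1, the repressor that Notch switches on to hold back Atoh1, did not differ between groups beyond its spread. Its probe set 160887_at had 325.6, 330.7, 375.7, 519.6 and 585.6 in carcinoma and 242.3, 536.4, 452.3, 678.4 and 384.7 in adenoma, against 299.5, 435 and 565.3 as the lowest, median and highest in WT. The groups overlapped. The log2 difference was -0.04 ± 0.29 in carcinoma (95% interval -0.64 to 0.55, adjusted p = 0.947, limma) and 0.02 ± 0.29 in adenoma (95% interval -0.58 to 0.62, adjusted p = 0.977, limma). As ratios to WT the intervals run from 0.640 to 1.47 in carcinoma and from 0.669 to 1.54 in adenoma, so a smaller change in Hes1 was not detectable with these arrays. With array medians aligned the differences were 0.28 in carcinoma and 0.31 in adenoma, which did not pass either.

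Atoh1, the master factor of secretory fate, was at or near the bottom of the scale. It read 20.2, 17.1, 11.2, 35.3 and 30.3 in carcinoma and 13.7, 43.9, 16.4, 33.6 and 11.2 in adenoma, with all 10 arrays below the floor. In WT the lowest, median and highest signals were 21.3, 51.9 and 173.1, and WT 1, WT 2 and WT 4 were above the floor. The other WT arrays, WT 3 at 23.1, WT 5 at 27.7 and WT 6 at 21.3, lay within the tumour range. WT 1, WT 2 and WT 4 were among the 4 arrays of high spike-in signal, and so was WT 5, the highest of all in spike-in. Atoh1 was above the floor on too few arrays to be tested, and with neither floor nor filter its differences of -1.23 ± 0.55 in carcinoma (adjusted p = 0.201, limma) and -1.27 ± 0.55 in adenoma (adjusted p = 0.197, limma) did not pass.

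Neurod1, a factor of enteroendocrine cells, read lower on most tumour arrays but did not pass the test. It read 51.8, 117.4, 103.3, 9.1 and 116.5 in carcinoma and 44.1, 144.1, 65.0, 91.1 and 30.6 in adenoma, against 36.1, 154 and 354.8 as the lowest, median and highest in WT. All 10 tumour arrays lay below 5 of the 6 WT arrays, and WT 5, at 36.1, lay among the lowest of all. The log2 difference was -0.93 ± 0.44 in carcinoma (95% interval -1.85 to 0.00, adjusted p = 0.213, limma) and -1.10 ± 0.44 in adenoma (95% interval -2.03 to -0.17, adjusted p = 0.142, limma). Leaving out WT 5 brought both past the threshold, at -1.27 in carcinoma (adjusted p = 0.0466, limma) and -1.44 in adenoma (adjusted p = 0.0250, limma). Neurod1 passed in only 1 of 31 alternative settings in carcinoma and 2 of 31 in adenoma. Its differences ran from -1.34 to -0.56 in carcinoma and from -1.44 to -0.58 in adenoma. Counted with Dll1, 2 of the 8 tested probe sets had an unadjusted p under 0.05 in each tumour group, beside 23.5% of all probe sets tested in carcinoma and 23.0% in adenoma.

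Genes whose log2 signal most resembled a member over the 16 arrays were named for the 5 members above the floor on at least 12 arrays. Hes1 was most like Abcb9 (Pearson r = 0.94) and Ccnf (r = 0.93). Neurod1 was most like Cdk11b (r = 0.93) and Foxn2 (r = 0.89). Jag2 was most like Slc22a17 (r = 0.86) and Myom2 (r = 0.86), Notch1 like Snrpd3 (r = 0.82) and Rell1 (r = 0.82), and Notch2 like Gnat1 (r = 0.82) and Cab39l (r = 0.77). These are descriptions over arrays that share amplification, scaling and group differences, and each is among the highest of all named genes.

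The wider pathway was read with 1 probe set a gene, the brightest, over 7455 tested genes, of which 4.05% rose and 4.76% fell in carcinoma (8.81% in all) and 3.96% rose and 4.05% fell in adenoma (8.01% in all). Of the other receptors and ligands, 3 of 6 were tested and 0 passed in either tumour group, with medians of -0.08 in carcinoma and -0.30 in adenoma beside -0.14 over all genes in each. Notch3 and Notch4, the remaining receptors, had log2 differences between -0.30 and -0.08. The other gene tested in this list had the lowest, at -0.41 in carcinoma and -0.66 in adenoma. Of the 12 receptor processing genes 6 were tested, and Adam10, the protease that makes the first cut after ligand binding, was the 1 that passed, in carcinoma. Adam10 spanned 716.8 to 1366.4 in carcinoma against 241.9 to 672.8 in WT, higher by 1.23 ± 0.37 on the log2 scale (adjusted p = 0.0418, limma). In adenoma its difference was 0.70 ± 0.37 (adjusted p = 0.259, limma). The Adam10 call was lost on leaving out any array but WT 1, WT 6, adenoma 1, adenoma 4, adenoma 5 or carcinoma 5, with values from 1.05 to 1.35. It was also lost in 6 of 15 other settings, and with the spike-in covariate the difference was 0.48 (adjusted p = 0.619, limma).

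Receptor modification and turnover gave 9 tested genes of 15. Dtx1, a Deltex E3 ligase that binds Notch, spanned 150.2 to 283.5 in adenoma against 206.4 to 506.4 in WT and fell by 0.96 ± 0.29 (adjusted p = 0.0498, limma), while its carcinoma difference was -0.48 ± 0.29 (adjusted p = 0.326, limma). The Dtx1 call was lost on leaving out any array but WT 1, WT 6, adenoma 4 or carcinoma 4, with values from -1.12 to -0.86. It was also lost in 10 of 15 other settings. Of 23 genes of the nuclear complex 12 were tested, and Ctbp2, a co-repressor, was the 1 called, at 2415.6 to 3185.7 in carcinoma against 925.8 to 2746.7 in WT (0.91 ± 0.26, adjusted p = 0.0316, limma). Its call was lost without WT 2, WT 4, WT 5, carcinoma 1, carcinoma 2, carcinoma 3 or carcinoma 5, with values from 0.77 to 1.09, and in 5 of 15 other settings. Rbpj, the DNA-binding partner of Notch, had differences of -0.10 in carcinoma and -0.44 in adenoma that did not pass.

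Of the 9 genes of the Hes and Hey family other than Hes1, 6 were tested and 1 passed, Bhlhe40, a related repressor of the same protein class that answers to hypoxia and the circadian clock rather than chiefly to Notch. Bhlhe40 spanned 402.2 to 719.0 in carcinoma and 384.1 to 763.8 in adenoma, against 196.9 to 386.1 in WT. It rose by 1.13 ± 0.26 in carcinoma (adjusted p = 0.00959, limma) and 1.03 ± 0.26 in adenoma (adjusted p = 0.0183, limma), and the adenoma call was lost without adenoma 1 or adenoma 5, with values from 0.93 to 1.18. Both Bhlhe40 calls were lost with the Gapdh covariate (adjusted p = 0.367 in carcinoma and 0.537 in adenoma, limma) and without the 4 WT arrays (adjusted p = 0.131 and 0.178, limma), and the adenoma call also with the spike-in covariate (adjusted p = 0.0597, limma). The Notch target Hey1 had differences of 1.17 in carcinoma and 0.72 in adenoma that did not pass (adjusted p = 0.192 and 0.440, limma). The 6 genes went in both directions. Their differences ran from -0.4364 to 1.165 in carcinoma, with a median of 0.52. In adenoma they ran from -1.002 to 1.033, with a median of 0.40.

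Secretory fate factors, 18 tested of 30, moved in both directions: 1 rose and 2 fell in carcinoma, and 2 rose and 0 fell in adenoma, with medians of -0.29 and -0.21. Foxa1, a pioneer factor of endoderm that goblet and enteroendocrine cells need, spanned 1031.9 to 1359.1 in carcinoma and 896.9 to 1370.4 in adenoma, against 253.0 to 572.7 in WT. It rose by 1.63 ± 0.25 in carcinoma (adjusted p = 0.000255, limma) and 1.54 ± 0.25 in adenoma (adjusted p = 0.000544, limma), and the call was lost in both with the Gapdh covariate (adjusted p = 0.159 and 0.329, limma). Gfi1, a repressor downstream of Atoh1, fell by 1.22 ± 0.33 in carcinoma (adjusted p = 0.0265, limma) and stood at -1.08 ± 0.33 in adenoma (adjusted p = 0.0518, limma). The carcinoma call of Gfi1 was lost without WT 1, carcinoma 1, carcinoma 4 or carcinoma 5, with values from -1.46 to -0.93, and in 8 of 15 other settings. Pax6, an enteroendocrine factor, fell by 1.10 ± 0.34 in carcinoma (adjusted p = 0.0499, limma), a call lost in 12 of 15 other settings and on leaving out any array but WT 4, WT 5, WT 6 or adenoma 1, with values from -1.34 to -0.95. Mycl, a member of the Myc family, rose by 1.06 ± 0.30 in adenoma (adjusted p = 0.0362, limma). This call was lost without WT 2, WT 3, WT 4, WT 5, adenoma 2, adenoma 4 or adenoma 5, with values from 0.97 to 1.21, and in 5 of 15 other settings. Neurog3, which starts the enteroendocrine program, and Isl1 were above the floor on too few arrays to be tested.

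Absorptive fate factors, 12 tested of 17, passed the test only downward, with 4 falling in carcinoma and 3 in adenoma and medians of -0.74 and -0.86. Vdr, the vitamin D receptor, fell by 2.94 ± 0.37 in carcinoma (adjusted p = 3.84e-05, limma) and fell by 2.64 ± 0.37 in adenoma (adjusted p = 0.000144, limma), and it was the 1 named gene of these pathway lists that passed under every alternative in both comparisons. Ppara, a regulator of fatty acid use, fell by 1.83 ± 0.30 in carcinoma and fell by 1.53 ± 0.30 in adenoma. Its calls were lost with the Gapdh covariate (adjusted p = 0.104 in carcinoma and 0.328 in adenoma, limma), and in adenoma also with the spike-in covariate (adjusted p = 0.0513, limma) and without the 4 WT arrays (adjusted p = 0.0851, limma). Nr1h4, the bile acid receptor, fell by 1.17 ± 0.32 in carcinoma and fell by 1.26 ± 0.32 in adenoma, the carcinoma call being lost without WT 4, carcinoma 4 or carcinoma 5, with values from -1.33 to -0.88. Both Nr1h4 calls were lost with array medians aligned (adjusted p = 0.164 in carcinoma and 0.121 in adenoma, limma), with a replicate block (adjusted p = 0.0640 and 0.0527, limma), with the Gapdh covariate (adjusted p = 0.409 and 0.476, limma) and without the 4 WT arrays (adjusted p = 0.232 and 0.182, limma). In carcinoma it was also lost with array weights and with only the 2 groups fitted. Gata4 fell by 1.49 ± 0.41 in carcinoma, lost without WT 2, WT 3, carcinoma 1, carcinoma 4 or carcinoma 5, with values from -1.74 to -1.11, and in 6 of 15 other settings. Between carcinoma and adenoma 0 genes of any of these lists passed the test, beside 0.0268% of all genes tested.

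**Figure D4:**
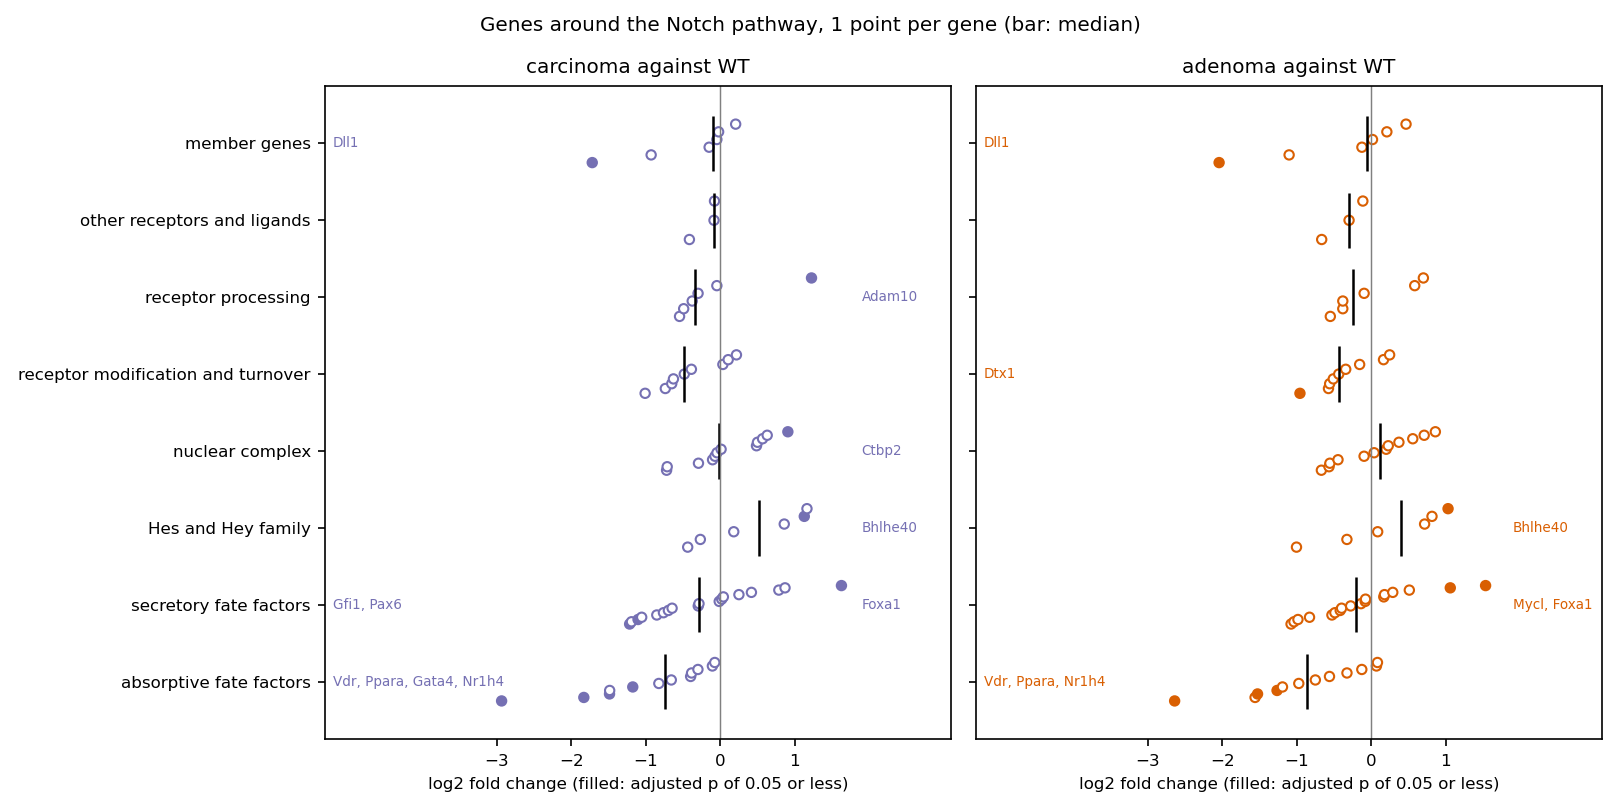
Log2 fold change of each tested gene of the pathway lists, for carcinoma and adenoma against WT; each point is 1 gene, filled where the adjusted p is 0.05 or less and named at the side, and the bar is the list's median. Most points are open, the absorptive fate factors have the lowest medians at -0.74 in carcinoma and -0.86 in adenoma, and Foxa1 is the highest filled point in each panel.

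Markers of several epithelial cell types, absorptive as well as secretory, were lower alongside Dll1, and some markers were higher. Of 15 tested goblet cell markers 1 rose and 7 fell in carcinoma and 7 fell in adenoma, beside 8.81% and 8.01% of all genes. Clca1, a secreted goblet cell protein, fell by 3.76 ± 0.34 in carcinoma and fell by 2.70 ± 0.34 in adenoma, and Fcgbp, a mucus protein, fell by 1.89 ± 0.31 in carcinoma and fell by 1.78 ± 0.31 in adenoma. Clca1 passed under every alternative, whereas both Fcgbp calls were lost with the Gapdh covariate (adjusted p = 0.185 in carcinoma and 0.348 in adenoma, limma) and without the 4 WT arrays (adjusted p = 0.109 and 0.155, limma). The summed goblet signal was 31001.9 to 76845.5 in carcinoma and 42138.7 to 64985.2 in adenoma, below 115918 to 222341 in WT with no overlap. Bright markers weigh most in this linear sum. In WT, Clca1 at 27730.3 to 53641.5 and Fcgbp at 27858.6 to 72709.5 made up much of it. Of 19 tested enteroendocrine markers 6 fell in carcinoma and 4 in adenoma, including the granule protein Chgb and the prohormone convertase Pcsk1, whose calls were lost with the Gapdh covariate (for Pcsk1 also without the 4 WT arrays). The summed signal of 3929.9 to 4556.1 in carcinoma and 4367.4 to 5965.1 in adenoma did not overlap the 8308.9 to 11133.6 in WT. How often sums of other gene lists separate in this way was not measured for goblet or enteroendocrine markers. Of the 22 enteroendocrine markers on the array, 5 were at or below the floor on every carcinoma array, 1 on every adenoma array and 1 on every WT array. The goblet list holds Atoh1 and the enteroendocrine list holds Neurod1, Neurog3, Pax6 and Isl1, so these lists share genes with those above. Paneth cell markers, 8 tested, went both ways, with 2 up and 1 down in each tumour group and overlapping sums. Enterocyte markers, 19 tested, had 9 that fell in carcinoma and 6 in adenoma, with medians of -1.81 and -0.99, led by the peptidase Enpep, which fell by 4.78 ± 0.62 in carcinoma and fell by 3.36 ± 0.62 in adenoma. Their sums were 19621.8 to 22250.6 in carcinoma and 22604.1 to 77789.5 in adenoma, against 42968.6 to 136694 in WT. Of 4 tested tuft cell markers 1 rose in each tumour group, Avil, by 2.67 ± 0.52 in carcinoma and 2.95 ± 0.52 in adenoma. The medians of the 4 were below 0, at -0.53 in carcinoma and -0.68 in adenoma, and their sums overlapped WT. Both Avil calls were lost with the Gapdh covariate (adjusted p = 0.364 in carcinoma and 0.388 in adenoma, limma), as were both Enpep calls (adjusted p = 0.0541 and 0.407, limma). Of 11 tested endothelial markers 1 rose in carcinoma and 2 in adenoma, led by Sox17 at 1.79 ± 0.33 and 3.22 ± 0.33. The carcinoma call of Sox17 was lost with the Gapdh covariate (adjusted p = 0.134, limma) and without the 4 WT arrays (adjusted p = 0.0661, limma). Of 18 smooth muscle and fibroblast markers 3 rose and 2 fell in carcinoma and 1 rose and 2 fell in adenoma. Markers of T, B and plasma cells, 15 tested, had 3 that fell in carcinoma and 5 in adenoma and summed to 1254.1 to 2579.2 in carcinoma and 1241.7 to 1997.1 in adenoma, against 2261.2 to 4216.6 in WT. The part of any of these cell types in the Dll1 result was not tested.

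**Figure D5:**
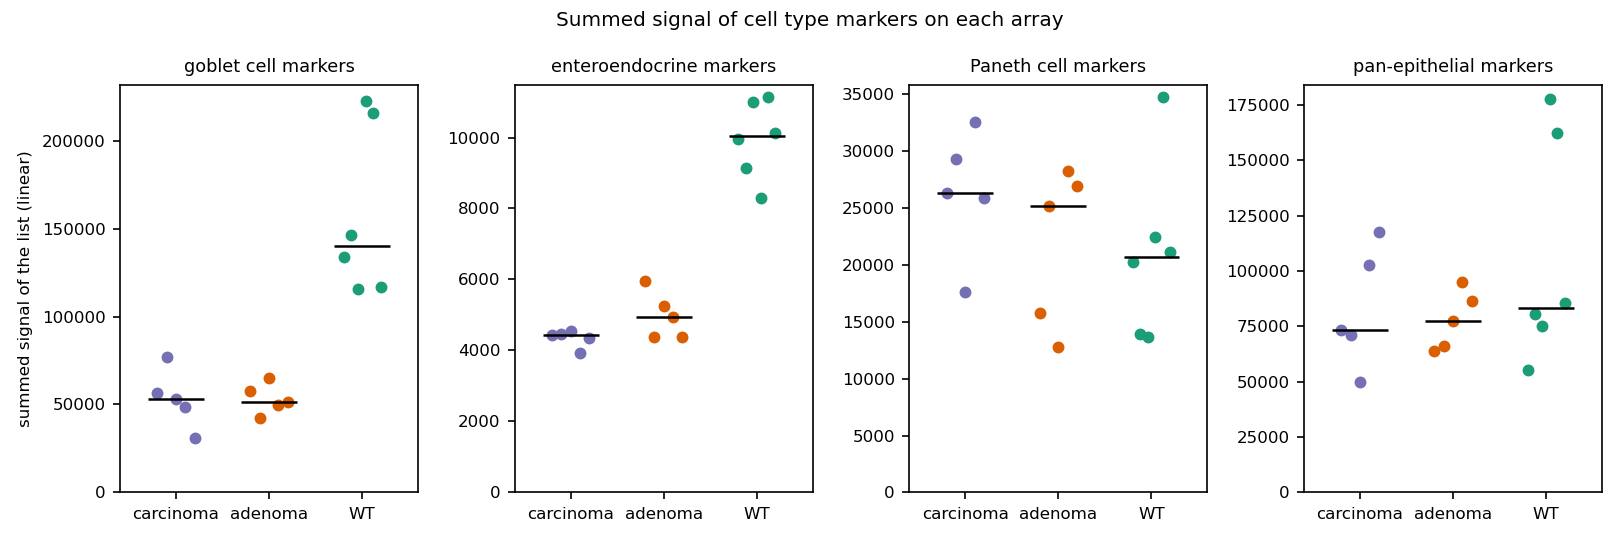
Summed linear signal of goblet, enteroendocrine, Paneth and pan-epithelial markers on each array, with bars at the group medians. Goblet and enteroendocrine sums in both tumour groups lie wholly below WT, while Paneth and pan-epithelial sums overlap.

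Array-wide measures also moved with the groups. Median array signal was 164 ± 23.2 in carcinoma, 166 ± 21.6 in adenoma and 204 ± 23.3 in WT (SD, exact permutation adjusted p = 0.0455 for each tumour group against WT). Probe sets above the floor made up 64.8% to 76.2% in carcinoma, 70.1% to 76.9% in adenoma and 74.6% to 81.8% in WT. Pan-epithelial markers, which check the labelled tissue, were all 10 tested with 0 called against WT in either tumour group (limma), and their sums overlapped, at 49760.7 to 117658 in carcinoma, 63865.8 to 95143.5 in adenoma and 55342.9 to 177816 in WT. The mean log2 spike-in signal was 12.23 ± 0.50 in carcinoma, 12.24 ± 0.82 in adenoma and 13.74 ± 1.0 in WT (SD, exact permutation p = 0.0238 in carcinoma and 0.0325 in adenoma, adjusted p = 0.0487 each, two-sided). The log2 3′ to 5′ ratio of Gapdh was 5.70 ± 0.58 in carcinoma, 5.82 ± 0.24 in adenoma and 4.52 ± 0.39 in WT (SD, exact permutation p = 0.00433 in carcinoma and 0.00216 in adenoma, adjusted p = 0.00649 each). The same ratio of beta-actin had lower means in tumours and did not pass after adjustment, at 6.04 ± 0.44 in carcinoma, 5.87 ± 0.30 in adenoma and 6.25 ± 0.17 in WT (SD, exact permutation p = 0.297 in carcinoma and 0.0216 in adenoma, adjusted p = 0.445 and 0.0649). The share of called probe sets that were higher was 42.3% in carcinoma and 45.4% in adenoma as scaled by the authors, 57.2% and 60.7% after quantile normalization, and 71.7% and 72.7% with array medians aligned. The Gapdh ratio ran from 4.95 to 6.45 in carcinoma and 5.52 to 6.12 in adenoma, against 4.09 to 5.02 in WT. It thus nearly follows the groups, and the covariate fit cannot tell group and ratio apart. Its SEs were wider, as for Dll1 (92931_at) in adenoma, at 0.72 against 0.41. The part of amplification and RNA length in the results above was not tested beyond the covariate fits given.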

How the data were processed

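The authors deposited probe set intensities on a linear scale for 16 arrays, 1 value per probe set and array; no label names the program behind them. Each array's mean after trimming 2% at each end was nearly the same, so the arrays were taken as scaled by the authors and not normalized again. Arrays have no read depth, and their number limits the precision.

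Groups and replicate numbers came from the sample titles. The 66 control probe sets were left out, values were floored at the 25th percentile of all values, log2 was taken, and the 10563 probe sets above the floor on at least 5 arrays were fitted in limma 3.58.1 (R 4.3.3, lmFit and eBayes, all 3 groups, 13 residual degrees of freedom), two-sided, with Benjamini-Hochberg adjustment and a threshold of 0.05. Control measures were compared by exact permutation with Python 3.11.15 and SciPy 1.17.1, adjusted over the 3 pairs of groups. The fit was tested on simulated data with 67, 67 and 66 of 10563 probe sets changed 1.5-fold, 2-fold and 4-fold. For carcinoma against WT it recovered 1.49%, 16.4% and 63.6% of these, and 8.47% of its calls were false. For adenoma against WT it recovered 1.49%, 14.9% and 54.5%, and 11.3% of its calls were false. Changes of 2-fold or less were thus mostly missed in the simulated data. Those data held a much smaller share of changed probe sets than the 8.68% called in carcinoma and 7.77% in adenoma. Recovery in the real arrays may therefore differ. Of 12422 probe sets without controls, 10833 carried 1 gene symbol, 396 several and 1193 were not listed in the platform annotation; 10817 had a gene ID found in RefSeq for GRCm38.p6, which supplied promoter windows and names only.

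All members' probe sets are given. From each list, up to 4 genes with an adjusted p of 0.05 or less against WT were eligible to be named by smallest p, with a gene represented by its brightest probe set, and for likeness the 2 genes of highest Pearson r; other genes named were chosen after their values were seen. The members and lists were chosen with earlier results of these data known. The alternatives were quantile normalization, aligned medians, other floors and filters, 1 probe set per gene, a replicate block, array weights, a robust variance trend, only the 2 groups compared, covariates for spike-in signal and Gapdh ratio, leaving out 4 WT arrays or each array in turn, and, added after the data were seen, no floor and no filter. Whether replicate numbers pair the arrays is not settled. Of 15 same-numbered pairs 6 had deviations correlated above 0.1, with a median r of 0.0853. Of 70 other pairs 18 did, with a median r of -0.0238. The labels name no pairing, and the main fit used none.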

Additional observations from a re-analysis of the deposited data

Results flagged for a closer look

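Of 26 groups of member signals, floored and on the log2 scale, examined for 1 array standing far from the rest, 3 were marked. Arrays tied at the floor narrow the range of a group, so the usual rate of about 1 in 20 groups does not hold here. Dll1 (92931_at) read 146.3 in adenoma 5, with the nearest adenoma array at 57.8 and only 2 of 5 adenoma arrays above the floor. Notch1 (162204_r_at) read 122.4 in adenoma 4, with the nearest adenoma array at 266.2. Dll1 (161634_r_at) read 102.2 in WT 3, with the nearest WT array at 48.3 and only 2 of 6 WT arrays above the floor. These 2 Dll1 marks therefore depend on the floor. The cause of these values was not tested.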

How the results depend on the processing

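Dll1 (92931_at) kept its sign against WT under all 31 alternatives in both comparisons. The number of member probe sets called against WT, 1 in each comparison as reported, became 0 in carcinoma after quantile normalization or with array weights, while array weights gave 2 in adenoma. It became 0 in both with the Gapdh ratio as a covariate or without WT 1, WT 2, WT 4 and WT 5, 2 in both with no floor and no filter, and lay between 1 and 2 on leaving out single arrays, where the 2 were Dll1 and Neurod1 without WT 5. Between carcinoma and adenoma it stayed at 0. Over all probe sets, 917 were called in carcinoma and 821 in adenoma; with the spike-in covariate these were 458 and 463, with the Gapdh covariate 145 and 97, and without the 4 WT arrays 258 and 230. Leaving out single arrays gave 634 to 1084 in carcinoma and 518 to 966 in adenoma, the lowest without adenoma 5. Between carcinoma and adenoma the 4 calls became 2 with the floor at the 10th percentile or with 1 probe set per gene, 7 with the floor at the 40th percentile, 28 with array weights, 9 with only the 2 groups compared, 11 without the 4 WT arrays, 1 with no floor and no filter, and 4 to 7 on leaving out single arrays. The cause of these shifts was not tested. Fits that left out arrays also had fewer arrays, and some of them called more probe sets than the full fit. With a replicate block, Dll1 was -1.60 in carcinoma (adjusted p = 0.0388, limma) and -1.92 in adenoma (adjusted p = 0.0185, limma), with 1181 and 1050 probe sets called. Signals near the floor limit Atoh1 and the dimmer Dll1 probe set.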
